A study of Homo sapiens with 36 samples.

Results

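The comparison described here was DMSO + DOX against DMSO in A375TR-NR2F1 cells, with 3 libraries in each group. These 6 libraries belong to a set of 36 RNA-Seq libraries from 3 human BRAF-mutant melanoma lines, chosen by the labels for line and treatment alone. A375TR-NR2F1 is the A375 melanoma line carrying the Tet repressor and a lentiviral NR2F1-WT cDNA that doxycycline (DOX) switches on, and both groups carry both constructs. Labels and methods give DMSO for 72 hours as the vehicle in both groups, with DOX at 100 ng/mL for those 72 hours in the DMSO + DOX group and for 24 hours beforehand. The labels give those 24 hours as with or without DOX, whereas the methods describe DOX in them for all wells, and which holds for the DMSO group is not given in the sources used here. None of the 36 libraries came from cells given DOX but lacking the NR2F1 cDNA, so that in these libraries effects of the drug and of NR2F1 cannot be told apart. In the same line, 3 libraries each were made with a BRAF inhibitor plus a MEK inhibitor (BRAFi + MEKi) without and with DOX. The inhibitors were PLX4720 (BRAFi) and PD0325901 (MEKi), given together for 72 hours. The other lines, WM793TR-NR2F1 and 1205LuTR-NR2F1, were treated in the same way.

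NR2F1, also called COUP-TFI, is an orphan nuclear receptor, a transcription factor of the nuclear receptor family with no established natural ligand. It binds DNA as a dimer at repeats of the half-site AGGTCA and often acts as a repressor, competing with retinoid and other receptors for such sites. It is known for roles in the neural crest, from which melanocytes arise, in the developing nervous system, and in dormancy of tumor cells.

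Each deposited file holds normalized expression, with 1 value for every gene. Values of the 6 libraries added up to between 29642411 and 31192155 per library. Reads, estimated from the commonest low value, were 26200000 to 33600000 in 5 libraries and 60500000 in DMSO + DOX replicate 1. That library also listed the most genes above 0, 23506 against 21627 to 22243 in the other 5. Within a group, log2 values of library pairs correlated across genes with r from 0.976 to 0.982. The melanocyte lineage markers were split between abundant and absent genes. SOX10, CSPG4, MCAM and S100B were abundant, PMEL was between 25.3 and 49.0, and TYR and MLANA, which define pigmented melanocytes, were listed at 0 in all 6. The summed level of 12 melanocyte lineage markers was 55048 to 67980 in DMSO and 41452 to 54564 in DMSO + DOX, and none of the 11 tested was called by limma, with 3 at an unadjusted p below 0.05. Summed keratinocyte and epithelial markers lay between 747 and 972 in DMSO and between 452 and 580.2 in DMSO + DOX, with KRT1 at 0 and none of 6 tested called (3 at an unadjusted p below 0.05). The part of these differences in the results below was not tested. Summed fibroblast, endothelial and blood cell markers overlapped between the groups, and CD3E and MS4A1 were at 0. In bulk RNA, fewer cells of a type and less RNA per cell cannot be told apart.

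DOX changed few genes beyond the spread between libraries under DMSO. Expression of 4 genes rose, namely NR2F1, SKP2, CLU and UTP14C. Expression of 8 fell, among them A2M, ADAMTS4, RNF144B, TRPM8, FOLH1, MMP15 and CADM1. These were the genes with an adjusted p below 0.05 by limma on log2(value + 1), with Benjamini-Hochberg adjustment over 24370 tested genes, and they made up 0.0164% (raised) and 0.0328% (lowered) of them. At an unadjusted p below 0.05 there were 1937 of the 24370 genes, the background for such counts in gene lists. The median log2 fold change over all tested genes was 0, and 48.3% were above 0. All 3 DOX libraries lay above all 3 DMSO libraries for 1353 genes (5.55%) and below them for 1492 (6.12%).

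Libraries that share a replicate number deviated from their group means together, mainly because replicate 3 stood apart in both groups. With the replicate number as a block, the same test called 20 genes raised (0.0821%) and 59 lowered (0.242%), among them all 12 that were called without it. Every one of these 20 was higher, and every one of the 59 lower, in all 3 replicate pairs. The block compares libraries within replicate numbers and so favors such genes, which makes this no further support. The groups did not overlap for 13 of the 20 and 41 of the 59.

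**Figure D1:**
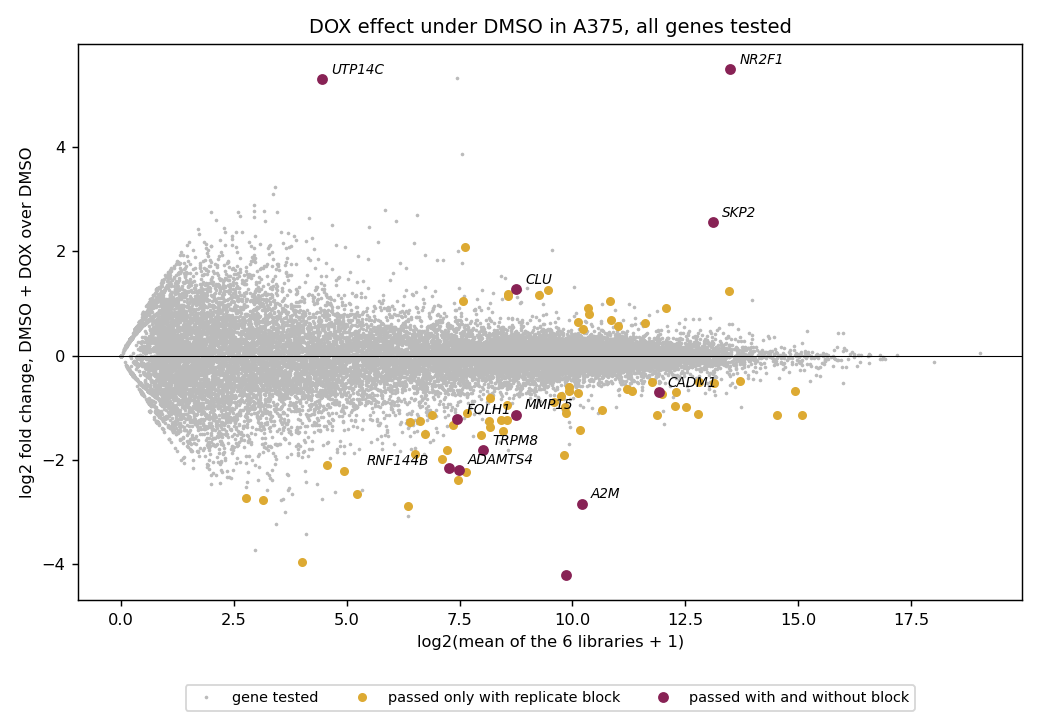
Each point is 1 of 24370 genes, with log2(mean of the 6 libraries + 1) on the x axis and the log2 fold change of DMSO + DOX over DMSO on the y axis; purple points passed the test with and without the replicate block, and yellow points only with it. NR2F1 lies at 5.49 and A2M at -2.84, and the height of UTP14C depends on the constant added before the log, because it was listed at 0 in DMSO.

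NR2F1 itself rose in all 3 DOX libraries, which checks the labels. It lies at chr5:93583222-93594611 (GRCh38, plus strand), and reads from the transgene count toward it. Values were 497, 405 and 563 in the DMSO libraries and 19001, 31632 and 17271 in the DMSO + DOX libraries. The groups were far apart, and the uninduced libraries still held a measurable level. Means were 488 ± 79.4 and 22635 ± 7839 (SD, n = 3 each), a 46.4-fold rise. The log2 fold change was 5.49 ± 0.27 (SE) with a limma adjusted p of 3.33e-07. NR2F1-AS1, an antisense transcript that overlaps the start of NR2F1 and cannot be separated from it without strand, had values of 202 to 291 in DMSO and 239 to 312 in DMSO + DOX (adjusted p = 0.86).

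The closest relatives of NR2F1 did not pass the test. NR2F2, or COUP-TFII, which binds the same half-sites, was at 1219, 1187 and 1551 in DMSO and at 1388, 1178 and 1847 in DMSO + DOX, with overlapping groups. Its log2 fold change was 0.14 ± 0.17 (limma adjusted p = 0.884). NR2F6, a further member of the family, was at 955, 824 and 978 without and 616, 850.1 and 798 with DOX (-0.29 ± 0.15, adjusted p = 0.669). NR2F1 was the only called gene in the list of COUP-TF receptors and corepressors, of which 9 were tested. None of 33 other orphan and steroid receptors was called by limma, with 8 at an unadjusted p below 0.05 (1937 of all 24370 tested). The one with the smallest unadjusted p, NR4A1, an immediate early orphan receptor, was at 1268 to 1372 in DMSO and 578 to 863 in DMSO + DOX (adjusted p = 0.43).

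**Figure D2:**
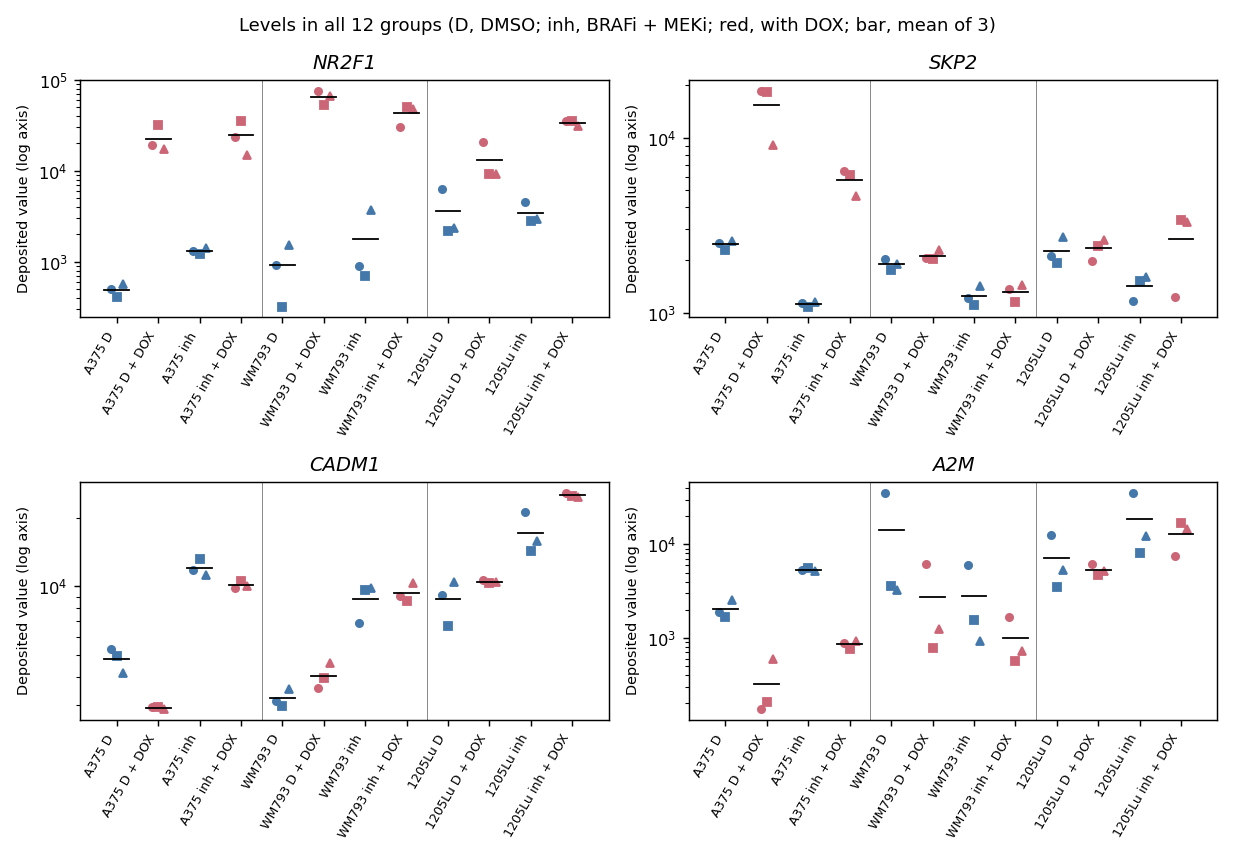
Deposited values (log axis) of NR2F1, SKP2, CADM1 and A2M in the 12 groups, with 3 libraries a group as points, DOX groups in red and the mean as a bar; D is DMSO and inh is BRAFi + MEKi. The A375 DMSO + DOX libraries of SKP2 (9088 to 18565) lie above every library of the other lines, and those of A2M (174 to 592) lie below the A375 DMSO libraries (1669 to 2535).

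SKP2 showed the largest rise after NR2F1 among called genes detected in both groups. It encodes the F-box protein that lets the SCF ubiquitin ligase recognize cell cycle inhibitors such as CDKN1B, and it lies at chr5:36151989-36196849 (plus strand). Values were 2519, 2297 and 2583 in DMSO and 18565, 18149 and 9088 in DMSO + DOX. Replicate 3 of DMSO + DOX was lowest of its group but still above every DMSO library. The mean rose from 2466 ± 149.9 to 15267 ± 5355 (SD, n = 3 each), 6.19-fold, with a log2 fold change of 2.56 ± 0.22 and a limma adjusted p of 0.000119. None of the other SCF components named here, which were chosen after their values were seen, passed the test. Log2 fold changes were 0.01 for SKP1, 0.02 for CUL1 and 0.32 for CKS1B, the SKP2 cofactor (adjusted p = 0.631). For CDKN1B RNA the log2 fold change was 0.24 (adjusted p = 0.705). Around SKP2, 9 other genes within 400 kb were tested and none was called, with 1 at an unadjusted p below 0.05. The 5 of them with a mean of at least 30 had log2 fold changes between -0.34 and 0.12. NADK2, on the opposite strand, overlaps the end of SKP2 by 4261 bases, and reads there cannot be assigned by strand.

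CLU, the secreted chaperone clusterin, rose 2.4-fold. Its values were 232, 212 and 318 in DMSO and 564, 713 and 553 in DMSO + DOX, with no overlap. The log2 fold change was 1.27 ± 0.20 (limma adjusted p = 0.0351). When 1 library at a time was left out, the call was kept without DMSO replicate 3 (adjusted p = 0.0169) and lost without any of the other 5 (0.0589 to 0.25).

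UTP14C, a retrocopy of a ribosome biogenesis gene within the ALG11 locus, was named after its values were seen, because its mean fell short of 30. It lies inside ALG11 on the same strand, and as a retrocopy it can share reads with its parent gene, so its values are uncertain. It was listed at 0 in all 3 DMSO libraries and at 24.1, 64.7 and 36.4 in DMSO + DOX (limma adjusted p = 0.00027). In the A375 libraries with BRAFi + MEKi it was listed at 0 but for a value of 0.982 without DOX, and the DOX effects in the 2 arms differed (adjusted p = 0.00361). Among the 24 libraries of the other lines, 1 was above 0, at 166 in 1205Lu BRAFi + MEKi. For ALG11 itself the log2 fold change was 0.12 (adjusted p = 0.829).

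The falls included A2M, ADAMTS4, MMP15 and FOLH1. A2M encodes alpha-2-macroglobulin, a secreted inhibitor of many proteases. Values were 1884, 1669 and 2535 in DMSO and 174, 208 and 592 in DMSO + DOX, 6.26-fold lower in the mean (2029 ± 451 to 324 ± 232, SD, n = 3 each). The log2 fold change was -2.84 ± 0.33 (limma adjusted p = 0.00285). ADAMTS4, an aggrecan-cleaving metalloprotease at chr1:161184302-161199054, was at 315, 246 and 321 in DMSO and nearly constant with DOX, at 62.2, 64.4 and 63.0. It fell 4.65-fold, with a log2 fold change of -2.19 ± 0.24 (adjusted p = 0.00195). MMP15, a membrane-anchored matrix metalloprotease, was at 717, 587 and 454 in DMSO and 249.5, 333 and 217 in DMSO + DOX (-1.13 ± 0.17, adjusted p = 0.0351). FOLH1 encodes a membrane carboxypeptidase known as prostate-specific membrane antigen. Its values were 222, 233 and 274 in DMSO and 115, 95.5 and 99.7 in DMSO + DOX (-1.23 ± 0.17, adjusted p = 0.0176). The groups did not overlap for any of these 4 genes, as the naming rule required.

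The remaining falls were in a ubiquitin ligase, an ion channel and an adhesion molecule. RNF144B, an E3 ubiquitin ligase, was at 225, 266 and 254 in DMSO and at 88.1, 33.7 and 54.2 in DMSO + DOX, 4.23-fold lower (-2.16 ± 0.34, limma adjusted p = 0.0395). TRPM8, the cold- and menthol-gated cation channel, was at 378, 419 and 410.0 in DMSO and at 150.3, 90.3 and 108 in DMSO + DOX, 3.46-fold lower (-1.81 ± 0.26, adjusted p = 0.0215). CADM1 encodes an immunoglobulin-like cell adhesion molecule that was abundant in this line. Values of CADM1 were 5303, 4909 and 4155 in DMSO and 2937, 2952 and 2885 in DMSO + DOX, a tight 1.64-fold fall (-0.70 ± 0.10, adjusted p = 0.0215). With 1 library left out at a time, RNF144B and TRPM8 were called only without DMSO + DOX replicate 1 (adjusted p = 0.0165 and 0.0188) and otherwise had adjusted p of 0.0975 to 0.231 and 0.0629 to 0.134. CADM1 was called only without DMSO replicate 3 (0.00861, otherwise 0.0589 to 0.199). MMP15 was called without DMSO replicate 3 (0.0122) or DMSO + DOX replicate 2 (0.0153) and otherwise lay between 0.0973 and 0.238. FOLH1 lost its call without DMSO replicate 1 (0.063), DMSO replicate 2 (0.0731) or DMSO + DOX replicate 2 (0.0789). A2M, ADAMTS4, SKP2 and NR2F1 were called in all 6 of these fits.

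**Figure D3:**
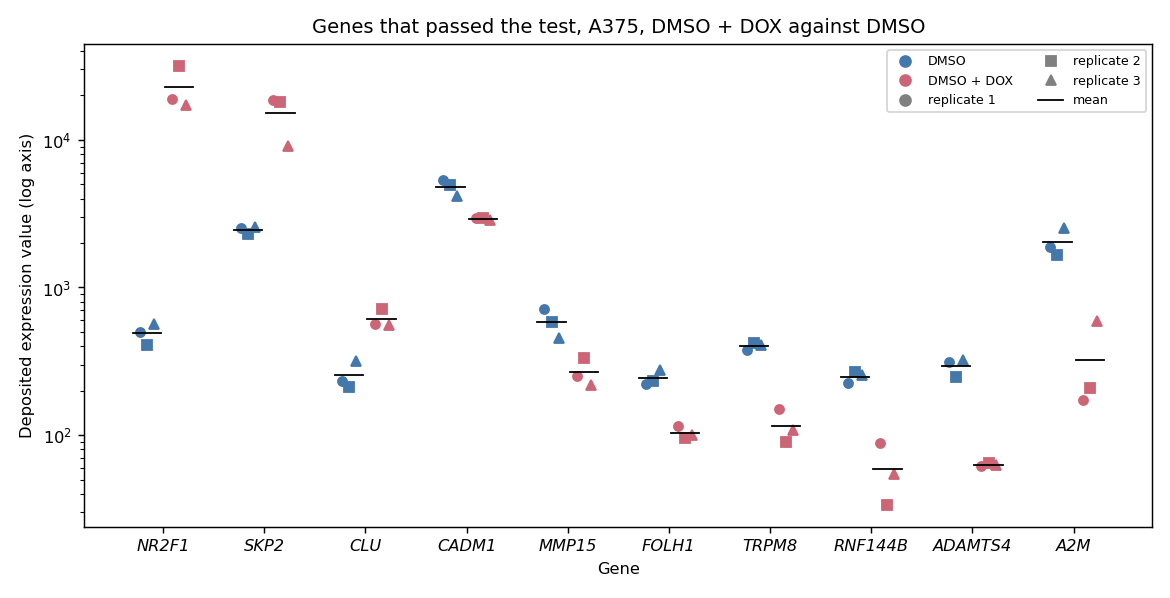
Deposited values (log axis) of 10 genes that passed the test and the naming rule, with DMSO in blue, DMSO + DOX in red, a marker shape for each replicate number and the group mean as a bar. No gene overlaps between the groups, which the naming rule required, from NR2F1 (405 to 563 against 17271 to 31632) to A2M (1669 to 2535 against 174 to 592).

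Promoter sequences bear on whether the genes that moved with NR2F1 hold its half-site next to their start. The 250 bases before each start were searched for AGGTCA on either strand (TGACCT on the opposite one) in the RefSeq promoter table of GRCh38.p14, and 12.08% of its 35116 promoters held a match. Of the 12 called genes, 6 had an entry. MMP15 had a match, 2 of 6 starts of TRPM8 had one, and the starts of NR2F1, SKP2, RNF144B and UTP14C had none. A2M, ADAMTS4, FOLH1, CADM1 and CLU had no entry. Below are the promoter of MMP15, a lowered gene, with its match in capitals, 226 bases before the start (chr16:58025504-58025753, plus strand), and 128 of the 250 bases searched before SKP2, a raised gene without a match, which stop before the first base of the gene in GENCODE (chr5:36151861-36151988, plus strand).
MMP15: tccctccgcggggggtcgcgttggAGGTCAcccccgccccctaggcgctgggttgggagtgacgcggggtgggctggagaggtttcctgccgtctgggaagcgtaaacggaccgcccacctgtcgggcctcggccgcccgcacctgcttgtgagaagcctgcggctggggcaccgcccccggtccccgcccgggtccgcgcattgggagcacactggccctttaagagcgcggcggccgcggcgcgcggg
SKP2: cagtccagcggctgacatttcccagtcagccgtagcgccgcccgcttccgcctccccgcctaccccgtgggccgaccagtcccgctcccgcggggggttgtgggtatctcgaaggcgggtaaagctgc

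A match is only a run of letters and does not show binding. Among genes called with the replicate block, 9 of 42 lowered genes and 1 of 16 raised genes with an entry held a match at a start. Counted the same way, 1867 of the 14555 tested genes with an entry (12.8%) held a match at any of their starts. No test was run on these counts.

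Genes of antigen presentation by MHC class II were among those that passed only with the replicate block. This group, like the other examples from that fit, was chosen after its values were seen and is only described. MHC class II molecules display peptides to CD4+ T cells, CD74 is their chaperone and CIITA is the transactivator of the whole family. Of 15 such genes tested, 13 were called lowered with the block and none without it, where limma adjusted p ranged from 0.376 to 0.842 and 12 had an unadjusted p below 0.05. All 15 were lower with DOX in all 3 pairs, with log2 fold changes from -2.38 to -0.32, but the groups overlapped for all except 2. CIITA was at 1393, 1053 and 561 in DMSO replicates 1, 2 and 3 and at 752, 572 and 305 in DMSO + DOX. Replicate 3 was thus lowest in both groups, and the pairs fell alike. The log2 fold change of CIITA was -0.88, with a limma adjusted p of 0.601 without and 0.0239 with the block. CD74, among the most abundant RNAs of these cells, was at 62764, 56235 and 25702 in DMSO and at 19595, 29642 and 14650.4 in DMSO + DOX (adjusted p = 0.546 without and 0.0062 with the block).

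The MHC class II chains, like CIITA, were lowest in replicate 3 of either group. HLA-DRA was at 12249, 12477 and 4367 in DMSO and at 5352, 5187 and 2347 in DMSO + DOX (-1.12, adjusted p = 0.576 without and 0.00097 with the block). HLA-DQA1 was at 378, 400.4 and 102 without and 92.4, 69.3 and 15.8 with DOX, the largest fall of the group (-2.38, adjusted p = 0.413 and 0.000109 with the block). HLA-DRB1 and HLA-DRB5, as well as HLA-DQA1 and HLA-DQA2, are near-identical copies that can share reads, so values for each are uncertain. HLA-DPB1 (-0.32, adjusted p = 0.568 with the block) and HLA-DQB2 (-1.07, adjusted p = 0.294 with the block) were not called. Without both replicate 3 libraries, a setting added after seeing the data, the block called 11 of the 15. In the fit of only the 6 libraries with the block, it called 9.

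C3, SERPINA3, ICAM1 and UBD are given as further examples of the 59 genes lowered with the block. C3, the central complement component, was at 6199, 6184 and 11076 in DMSO and at 3383, 3028 and 5325 in DMSO + DOX, so replicate 3 was highest here (-0.99, adjusted p = 0.413 without and 0.00212 with the block). SERPINA3, an acute-phase protease inhibitor, was at 38337, 40659 and 18759 without and 17863, 18451 and 8204 with DOX (-1.14, adjusted p = 0.382 and 0.00367 with the block). Log2 fold changes were -0.52 for ICAM1, a leukocyte adhesion ligand, and -1.23 for UBD, an interferon-responsive ubiquitin-like protein (adjusted p = 0.0329 and 0.0168 with the block).

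Of the 12 melanocyte lineage markers, SOX10, S100A1 and DCT were called lowered with the block and none was called raised. SOX10, the transcription factor that keeps neural crest, glial and melanocyte identity, was at 16198, 16487 and 14722 in DMSO and at 10594, 12670.2 and 10433 in DMSO + DOX. The groups did not overlap, and its log2 fold change of -0.50 had a limma adjusted p of 0.214 without and 0.0239 with the block. Of 15 alternatives, that block on all 12 A375 libraries was the only one in which SOX10 was called. For S100A1, a calcium-binding protein, the log2 fold change was -0.98 (adjusted p = 0.027 with the block). DCT, a melanin synthesis enzyme, was low, at 105, 90.7 and 2.23 in DMSO and at 15.3, 6.73 and 0 in DMSO + DOX (adjusted p = 0.0111 with the block). In the same marker list, PMEL, a melanosome protein, was not called, at 25.3 to 35.0 without and at 38.4 to 49.0 with DOX (adjusted p = 0.642 with the block). PAX3 (387 to 479.5 and 468 to 504) and MITF (685 to 1103 and 979 to 1124), transcription factors of the lineage, overlapped between the groups. MCAM, a melanoma adhesion molecule, did not, at 9563 to 12041 without and 5421 to 7971 with DOX (adjusted p = 0.247 with the block).

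TGFBI, BGN, THSD4, RCAN2, SLC2A12 and DPYSL2 are given as examples of the 20 genes raised with the block. TGFBI, a secreted matrix protein induced by TGF-beta, was at 3396, 4087 and 14120.3 in DMSO and at 9286, 10308 and 27163 in DMSO + DOX. Every pair rose, although the groups overlapped, and the log2 fold change of 1.24 had a limma adjusted p of 0.698 without and 0.00367 with the block. BGN, the proteoglycan biglycan, was at 2094, 1927 and 4731 without and 3029, 4365 and 9683 with DOX (0.92, adjusted p = 0.687 and 0.0277 with the block). THSD4, a microfibril-associated protein, was at 691, 598 and 1492 without and 1413, 1237 and 2357 with DOX (0.91, adjusted p = 0.622 and 0.0403 with the block). For RCAN2, a regulator of calcineurin, the groups did not overlap, as was also so for SLC2A12 and DPYSL2. RCAN2 was at 52.3, 58.6 and 124 without and 365, 309 and 269 with DOX (2.09, adjusted p = 0.0709 and 0.0293 with the block). Log2 fold changes were 1.14 for SLC2A12, a glucose transporter, and 0.68 for DPYSL2, a growth cone protein (adjusted p = 0.025 and 0.00705 with the block).

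**Figure D4:**
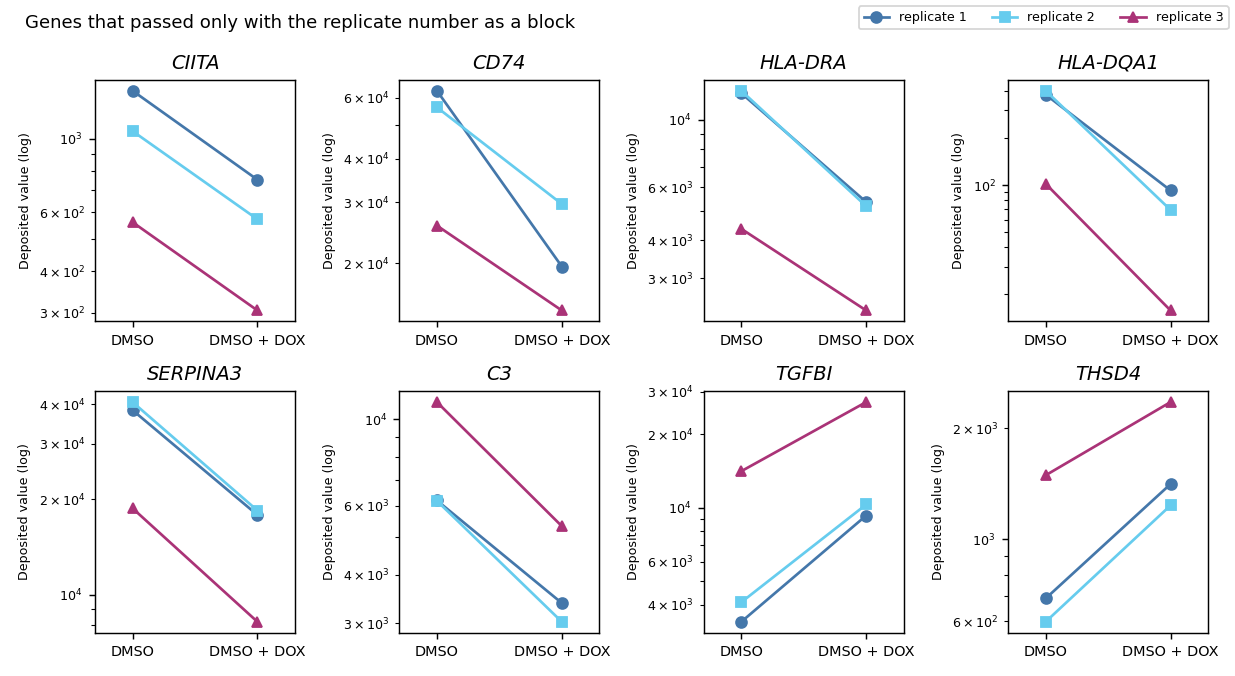
Deposited values (log axis) in DMSO and DMSO + DOX for 8 genes called only with the replicate block, with a line joining the libraries that share a replicate number. The lines fall for CIITA, CD74, HLA-DRA, HLA-DQA1, SERPINA3 and C3 and rise for TGFBI and THSD4, and replicate 3 lies apart from the other pairs, as for HLA-DRA at 4367 and 2347.

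Gene lists for the pathways that NR2F1 is known for, or that melanoma cells depend on, held few calls. Of 28 lists, only the COUP-TF list and the list of proteases and inhibitors contained genes called without the block. Of 39 proteases and inhibitors tested, 2 fell (ADAMTS4 and MMP15) and none rose, with a median log2 fold change of -0.02 over the list against 0 over all tested genes. With the block ADAM23 fell too, at 1273, 1237 and 1241 in DMSO and 699.8, 665 and 423 in DMSO + DOX (adjusted p = 0.0448 with the block). Of 25 retinoid receptors and retinoic acid genes none was called by limma in either fit. An unadjusted p below 0.05 was found for 8 of them, against 1937 of all 24370 genes tested. DHRS3, a retinaldehyde reductase, had the smallest unadjusted p and non-overlapping values of 4041 to 4230 without and 5648 to 7209 with DOX (0.63 ± 0.12, adjusted p = 0.131). RARB, a retinoic acid receptor, was at 486, 462 and 578 without and 816, 610 and 676 with DOX (adjusted p = 0.557). Of 22 dormancy genes none was called and none had an unadjusted p below 0.05, with 10 above 0 and a median of -0.13.

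Lineage lists gave single calls with the block. In 30 neural crest and mesenchymal genes the median log2 fold change was -0.22, with 11 above 0, and SOX10 was the only call. Of 22 pigmentation genes tested, DCT was the only call, and the median was 0.07. Of 40 interferon and antigen presentation genes, 4 were called lowered with the block (HLA-DRB1, CD74, HLA-DRA and CIITA), although 24 of the list lay above 0 and its median was 0.04. BGN among 45 collagens and matrix genes, and TGFBI among 42 TGF-beta and BMP pathway genes, were the only calls of their lists.

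Proliferation genes held no limma call under DMSO in either fit, with an unadjusted p below 0.05 for 1 gene each of the mitotic, DNA replication and nucleolar MYC target lists and for 2 mTORC1 target genes. The median log2 fold change was -0.02 for 54 mitotic genes, with 25 above 0, and 0.03 for 41 DNA replication genes, with 25 above 0. In pairs 1, 2 and 3 the medians were 0.15, 0.14 and -0.35 for the mitotic list and 0.06, 0.17 and -0.05 for the DNA replication list, below 0 in pair 3 alone. CDC25B, a phosphatase that opens mitosis, had the smallest unadjusted p of the mitotic list, with values of 5792 to 6149 without and 7459 to 9093 with DOX (0.49 ± 0.11, adjusted p = 0.185). Medians were -0.07 for 34 nucleolar MYC target genes, with 8 above 0, and -0.07 for 55 mTORC1 target genes, with 24 above 0. POLR1B, an RNA polymerase I subunit, was at 3400 to 3634 without and 2594 to 2810 with DOX (-0.37 ± 0.08, adjusted p = 0.195).

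The metabolic lists held no call in the fit without the block. Of 31 cholesterol and fatty acid synthesis genes, 27 lay below 0, with a median of -0.18 and no call in either fit. The DOX libraries were all below the DMSO libraries for 9, against 6.12% of all tested genes. An unadjusted p below 0.05 was found for 9, against 1937 of all 24370 tested genes. FASN, the fatty acid synthase, was at 15158, 13012 and 16500 without and 8443, 12173 and 9150 with DOX (adjusted p = 0.286). Of 40 nuclear-encoded oxidative phosphorylation genes, 35 lay below 0, with a median of -0.12 and pair medians of -0.26, 0.02 and -0.13. UQCRFS1, the Rieske protein of complex III, was their only call with the block, at 3049, 3049 and 2496 without and 1794, 2014 and 1700.2 with DOX (-0.64, adjusted p = 0.0656 without and 0.0094 with the block). Of 13 mitochondrially encoded genes 11 lay below 0, with medians of 0.12, -0.63 and -0.16 in pairs 1, 2 and 3. Of 32 hypoxia and glycolysis genes 26 lay below 0, with a median of -0.14 and pair medians of 0.09, -0.17 and -0.39. The pairs thus differed in direction in the oxidative phosphorylation, mitochondrially encoded and hypoxia lists.

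The ATF4 stress list had the highest median, and that median came from replicate 3. Of 35 such genes, which answer to amino acid shortage and the integrated stress response, 31 lay above 0 and none was called, with 5 at an unadjusted p below 0.05 and a median of 0.32. The pair medians were -0.15 and 0.00 in replicates 1 and 2 and 1.12 in replicate 3. NUPR1, a stress-induced chromatin protein, was at 61.6, 31.9 and 36.2 in DMSO and 61.4, 54.4 and 875 in DMSO + DOX. ASNS, which makes asparagine, was at 2273, 1758 and 1796 without and 1932, 1780.4 and 10393 with DOX. In both genes a lone library, DMSO + DOX replicate 3, was high, and adjusted p was 0.615 for NUPR1 and 0.711 for ASNS.

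**Figure D5:**
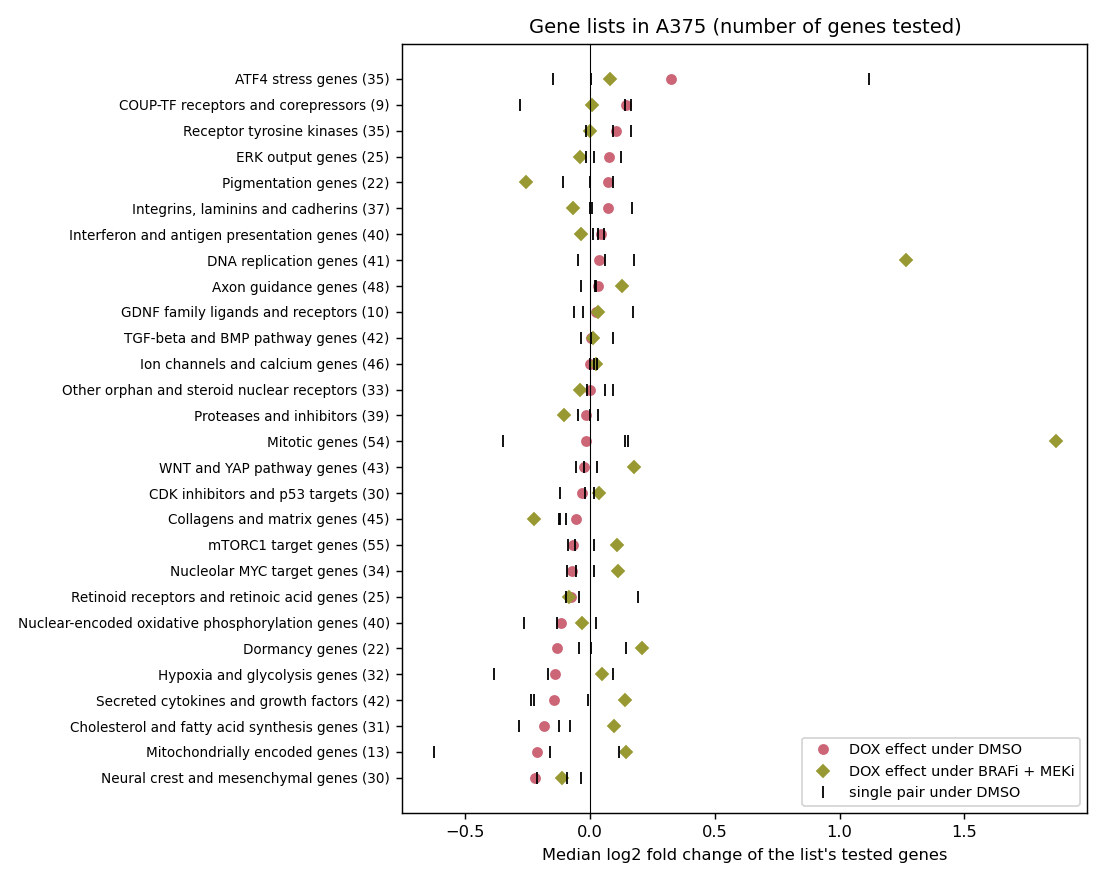
Median log2 fold change of the tested genes of 28 lists in A375, with red points for the DOX effect under DMSO, black ticks for each replicate pair under DMSO and green diamonds for the DOX effect under BRAFi + MEKi. Mitotic genes (-0.02 against 1.87) and DNA replication genes (0.03 against 1.26) differ most between the arms, and the ATF4 list is spread from -0.15 to 1.12 over the pairs.

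The DOX effect under DMSO was set beside that under BRAFi + MEKi in the same line. In the inhibitor arm 333 genes (1.37%) rose and 37 (0.152%) fell, or 481 (1.97%) and 120 (0.492%) with the block. The difference between the DOX effects passed the test for 112 genes, larger (more positive) under DMSO for 5 (0.0205%) and smaller for 107 (0.439%). Of the 54 mitotic genes 25, and of the 41 DNA replication genes 13, were among the smaller. RRM2, a ribonucleotide reductase subunit, was at 8574, 7389.9 and 7404 in DMSO and 5687, 7019 and 4885 in DMSO + DOX, but at 129, 158 and 345 with BRAFi + MEKi and 703, 1007 and 1701 when DOX was added. Its DOX effects differed by -2.89 ± 0.47 on the log2 scale (limma adjusted p = 0.0153).

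Several called genes moved the same way in both arms, whereas the DOX effects on UTP14C differed, as given above. SKP2 rose under BRAFi + MEKi too, from 1139.5, 1089 and 1154 to 6436, 6127 and 4662 (2.33, adjusted p = 7.54e-05). A2M fell from 5363, 5601 and 5135 to 885, 756 and 937 (-2.65, adjusted p = 0.000478), and ADAMTS4 (-1.53, adjusted p = 0.00318) and FOLH1 (-1.15, adjusted p = 0.00176) fell as well. NR2F1 itself went from 1327, 1223 and 1431 to 23714, 35683 and 14995, and its DOX effects did not differ by the test (1.35 ± 0.38, adjusted p = 0.243). PDGFB, a growth factor not called under DMSO (limma adjusted p = 0.524), was at 208, 222 and 245 in DMSO and 87.0, 104 and 131 in DMSO + DOX. With BRAFi + MEKi it was at 12.6, 19.0 and 45.2, and at 57.5, 109 and 70.6 when DOX was added (difference -2.81 ± 0.55, adjusted p = 0.044). For CLU, RNF144B, TRPM8, MMP15 and CADM1 the difference between arms did not pass the test.

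With the block in both arms, 10 of the 20 genes raised under DMSO were also called raised under BRAFi + MEKi, and 27 of the 59 lowered were also called lowered. These arms share no library, but both come from 1 fit, in which the replicate block and the spread of each gene are shared. The overlap of their calls is thus not independent support. Of the 15 MHC class II genes, 13 were called lowered there, again with the block, but they were not the same 13. HLA-DPB1 and HLA-DQB2 were called there, whereas CIITA (limma adjusted p = 0.26) and HLA-DOB (0.0804) were not. C3 was the only gene called in opposite directions, with a log2 fold change of 0.71 under BRAFi + MEKi (adjusted p = 0.00376 with the block), and the difference had an adjusted p of 0.142 without it.

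Few of the genes called in A375 were also called in the other lines. All 36 libraries were fitted together for the other lines and for differences between lines, with 26779 genes tested. The 12 calls in A375, by contrast, came from the fit of the 12 A375 libraries, with another estimate of the spread. A gene not called in another line is therefore not shown to differ between lines. DOX under DMSO raised 99 genes (0.37%) and lowered 80 (0.299%) in WM793, and raised 4 (0.0149%) and lowered 10 (0.0373%) in 1205Lu. Of the 12 genes called in A375, NR2F1 and CLU were also called raised in WM793, and none was called the same way in 1205Lu. Even NR2F1 itself was not called in 1205Lu, with a log2 fold change of 1.93 (limma adjusted p = 0.217). The sign was the same as in A375 for 8 of the 12 in WM793 and for 8 in 1205Lu. The share of all tested genes with the same sign was not counted, so nothing is read from these counts. The effect in A375 was larger than in WM793 for 14 genes (0.0523%) and smaller for 24 (0.0896%), and larger than in 1205Lu for 7 (0.0261%) and smaller for 4 (0.0149%).

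SKP2 rose in A375 and differed in its DOX effect from both other lines. Under DMSO it went from 2045, 1751 and 1909 to 2054, 2025.5 and 2299 in WM793 and from 2119, 1932 and 2725 to 1988, 2413 and 2602 in 1205Lu. The DOX effect was larger in A375 by 2.40 ± 0.36 than in WM793 and by 2.50 ± 0.36 than in 1205Lu on the log2 scale (limma adjusted p = 0.00108 and 0.00113). The DOX effect on NR2F1 was larger in A375 than in 1205Lu, where it started higher, at 6273, 2182 and 2327, and reached 20699, 9155 and 9270.3 (difference 3.56 ± 0.70, adjusted p = 0.049). In WM793 it went from 917, 321 and 1511 to 76313, 52746 and 65751, which did not differ from A375 by the test (adjusted p = 0.83). CADM1 went from 3117, 2968 and 3544 to 3576, 3939 and 4595 in WM793, and the DOX effects differed by -1.03 ± 0.21 (adjusted p = 0.0264). Against 1205Lu the difference for CADM1 was -0.99 (adjusted p = 0.0825).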

How the data were processed

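RNA-Seq libraries came from A375TR-NR2F1 cells with DMSO or DMSO + DOX (3 each). Per the methods and the submitters' processing notes, the authors used STAR 2.7.0 for alignment to GRCh38, GENCODE 35 as annotation, RSEM 1.2.28 for quantification and DESeq2 1.28.1 for normalization. The signal deposited for each gene is thus a normalized expression value and not a read count, so tests for counts were not used and no counting intervals are given. The libraries were made with a TruSeq RNA kit that does not mark strand. Gene IDs (60401 of 60656) were matched to symbols and coordinates of GENCODE 44. Per-library values are as deposited, and folds of means are on that scale.

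A gene was tested if any A375 group had a mean of 1 or more, with limma 3.58.1 (R 4.3.3) on log2(value + 1) with a mean-variance trend. All 12 A375 libraries were fitted together, with Benjamini-Hochberg adjustment and a threshold of 0.05. This understates folds of low genes. Comparisons between lines used all 36 libraries in 1 fit. The code was tested on simulated data. Lists were counted and described by medians, with no list test.

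The methods call the replicates independent experiments and do not say whether numbers pair libraries across groups. Where nothing more is known, p-values measure the spread between these libraries. In the 14476 genes averaging 30 or more, deviations of same-numbered libraries correlated with r = 0.11, 0.106 and 0.448 for replicates 1, 2 and 3, all above the 0.1 set as the criterion. Replicates 1 and 2 correlated more with each other across groups (0.209 and 0.26), and over all tested genes the values were 0.0521, 0.0464 and 0.234. The pairing is therefore a hint from the data that rests on replicate 3, and the blocked values are given where they change a call.

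Genes were named by a rule: NR2F1, NR2F2 and NR2F6; called genes with no overlap between groups and a mean of at least 30, up to 12 in each direction; in each list the called members or, with none, the smallest unadjusted p; and for each difference of DOX effects the 3 largest called in each direction. Genes called only with the block, further list members, neighbouring genes and UTP14C were chosen after their values were seen. Some genes that the rule selects are not reported here, although they are included in the counts. The comparison, lists and rule were chosen with earlier results of these data known. Alternatives were a pseudocount of 0.1, no filter, the replicate block, rescaling to the same total, array weights, each library left out and the 6 libraries alone.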

Additional observations from a re-analysis of the deposited data

Results flagged for a closer look

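Differences between arms or lines in the DOX effect were marked where the difference itself passed the test. All are log2 differences with limma adjusted p, and their causes were not tested. Between DMSO and BRAFi + MEKi in A375, the DOX effect was lower under DMSO for RRM2 (-2.89, adjusted p = 0.0153) and for PDGFB (-2.81, adjusted p = 0.044). It was higher under DMSO for SYTL5, a Rab-binding vesicle protein, by 1.19 (adjusted p = 0.0432), for FREM2, an extracellular matrix protein, by 1.12 (adjusted p = 0.0278) and for SVIL, the actin-binding supervillin, by 0.88 (adjusted p = 0.0208). SYTL5 was at 3590.0, 3715 and 3678 in DMSO and 4112, 3444 and 2631 in DMSO + DOX, and at 246, 230.1 and 181 with BRAFi + MEKi and 85.5, 95.4 and 78.3 when DOX was added. FREM2 rose in the DMSO arm with the replicate block only (0.79, adjusted p = 0.102 without and 0.02 with it). SVIL did likewise (0.57, adjusted p = 0.115 and 0.0277 with the block). Of 11 alternatives, RRM2 was called in 9, SVIL in 8, FREM2 in 7, SYTL5 in 4 and PDGFB in 3.

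Between A375 and WM793 under DMSO, the DOX effect was higher in A375 for SKP2 (2.40, adjusted p = 0.00108), FRMD3, a cytoskeletal FERM domain protein (1.99, adjusted p = 0.00708), and ITGA1, a collagen-binding integrin (1.63, adjusted p = 0.0446). It was lower in A375 for PLCG2, a phospholipase C (-5.29, adjusted p = 0.00439), DKK1, a secreted WNT inhibitor (-4.76, adjusted p = 0.0381), THSD7A, a membrane protein (-4.13, adjusted p = 0.0443), and CADM1 (-1.03, adjusted p = 0.0264). In A375 the adjusted p of PLCG2, DKK1, THSD7A, FRMD3 and ITGA1 lay between 0.389 and 0.977. DKK1 was at 1549.8, 1389 and 1223 in DMSO and 1287, 1162 and 1011 in DMSO + DOX, while in WM793 its log2 fold change was 4.49. ITGA1 was at 3953, 4185 and 5045 without and 8315, 7060.3 and 6163 with DOX (0.71, adjusted p = 0.389). Against 1205Lu, the DOX effect in A375 was higher for NR2F1 (3.56, adjusted p = 0.049) and SKP2 (2.50, adjusted p = 0.00113). SKP2 and FRMD3 were called in all 11 alternatives of these differences, PLCG2 in 10, CADM1 in 9, NR2F1 in 8, THSD7A and ITGA1 in 6 and DKK1 in 5.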

How the results depend on the processing

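Counts of calls depended on the setting, whereas NR2F1, SKP2, ADAMTS4 and UTP14C were called in all 15 alternatives and none of the 12 called genes changed sign in any. Of 180 values of the 12 genes, 140 kept the call. A2M lost it in 1 (adjusted p = 0.0897), and RNF144B in most (called in 6). The 4 raised and 8 lowered genes became 20 and 59 with the replicate block, 7 and 16 with array weights, and 31 and 58 with only the 6 libraries and the block, and without the block only 5 genes were lowered with those 6. With both replicate 3 libraries left out, 15 were raised and 12 lowered, or 31 and 58 with the block. Leaving out 1 library gave 4 to 12 raised and 3 to 14 lowered. Without DMSO replicate 3 there were 9 and 14, without DMSO + DOX replicate 3 there were 12 and 5, without DMSO replicate 1 or 2 there were 4 and 3, and without DMSO + DOX replicate 2 there were 4 and 5. The 112 differences from the BRAFi + MEKi arm became 236 with array weights and 40 to 103 with 1 library left out. The 38 differences from WM793 became 59 with a pseudocount of 0.1, 60 with no filter, 58 with the replicate block, 98 with array weights and 44 to 75 with 1 library left out. The 11 differences from 1205Lu became 33, 31, 7 and 26 in the same settings and 13 to 40 with 1 library left out. The causes of these moves were not tested. Rescaling to the same total kept 4 raised and left 7 lowered. With 3 libraries a group, the median SE was 0.33 on the log2 scale (0.30 with the block).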
